A study of Homo sapiens with 4 samples.

Results

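The unfolded protein response and the folding machinery of the endoplasmic reticulum (ER) were examined as 40 genes of 19192 in the deposited count files. The genes were chosen by symbol from a list of ER chaperones, ER degradation genes and stress sensors, which was drawn up with earlier results of these data known. All 40 were listed for each of the 4 libraries, DERL3 with 0 footprints in the knockout-labelled one. They were sorted by role into 7 stress sensors and transcription factors, 13 chaperones and lectins, 8 disulfide enzymes and 12 genes of ER degradation. The cells were SW480, an established line from a human colorectal adenocarcinoma, labelled either as homozygous knockout of IMP1 (IMP1-/-) or as wild type. For each genotype there was 1 library of total RNA and 1 of ribosome-protected fragments (RPF, footprints of ribosomes on mRNA), each made from 3 pooled culture plates. The labels name no treatment, and they do not say whether the knockout line was 1 clone. Each group has 1 library, so differences have no replicate check and the genotype cannot be told apart from the clone or the culture.

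Secretory and membrane proteins fold in the ER with the help of HSP70 and HSP90 chaperones, the lectins calnexin and calreticulin, and protein disulfide isomerases. Chains that fail to fold are drawn back into the cytosol and degraded. When unfolded protein builds up, 3 membrane sensors respond, each leading to its own transcription factor. ATF6 is cut to release its own factor domain, IRE1 (gene ERN1) splices XBP1 mRNA, and PERK (gene EIF2AK3) phosphorylates eIF2 alpha, which lowers general translation and favours translation of ATF4 mRNA. In the intestinal epithelium this response is best known from secretory cells such as goblet and Paneth cells.

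Library totals were 4932388 reads for knockout-labelled RNA, 5551479 for wild-type RNA, 3778316 for knockout-labelled RPF and 3782874 for wild-type RPF. IGF2BP1, the gene of IMP1, had 571 RNA reads in the knockout-labelled library and 598 in wild type, a change of 0.08 on the log2 scale (95% counting interval −0.08 to 0.25), so the RNA does not bear out the label. In footprints IGF2BP1 had 149 reads in the knockout-labelled library and 285 in wild type and was lower (log2 −0.93, −1.23 to −0.65). Reads per gene do not show which exons they came from, and the libraries are called knockout-labelled throughout. For wild-type RNA the labels disagree, giving SW840 as the line and SW480 as the source. Every RNA change below, and every change of footprints relative to RNA, uses that library, while the RPF comparison does not. Of 8 epithelial markers 6 to 7 had reads in each library, with KRT18 the highest, and KRT20 was at 0 in all 4. The epithelial markers differed in both directions. In RNA KRT8, KRT18, CDX2 and VIL1 were lower in the knockout-labelled library by the rule given below, VIL1 with 2 reads against 160 in wild type. CDH1 was higher, with 286 knockout-labelled and 83 wild-type RNA reads (log2 1.93) and 275 and 88 footprints (log2 1.64). Of 8 goblet and Paneth markers 7 were in the count files, and MUC2 was not. The 7 summed to 0.901 to 6.69 CPM (reads scaled to a common library total), with AGR2, DEFA5 and ITLN1 at 0 in every library. FCGBP had 30 RNA reads in the knockout-labelled library and 0 in wild type, and LYZ had 0 and 5 in the same order. Leukocyte markers summed to 0.406 to 3.06 and fibroblast markers to 0.529 to 5.47 CPM, and PTPRC, CD3E, CD53 and DCN were at 0 in every library. Plasma cell markers summed to 124 CPM in knockout-labelled RNA against 60.7 in wild-type RNA, and to 102 in knockout-labelled RPF against 63.2 in wild-type RPF, mostly SDC1, which epithelial cells also express, with 510 and 298 RNA reads. PRDM1 had 92 and 38 RNA reads, and JCHAIN was at 0 in every library. Endothelial markers summed to 180 CPM in knockout-labelled RNA against 365 in wild-type RNA, of which KDR gave nearly all. In footprints they summed to 13.5 CPM in the knockout-labelled library against 2.64 in wild type, with CDH5 at 30 against 0 reads, VWF at 13 against 0 and KDR at 4 against 6. The part of these markers in the results below was not tested.

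The sequences that tie these genes to the sensors are shown first. IRE1 removes an intron of 26 bases from XBP1 mRNA, which shifts the reading frame so that the active factor is made. It was located from the only pair of CNGCAG cleavage motifs spaced 26 bases apart in the transcript, at coding bases 494 to 519 of the counted XBP1 transcript (ENST00000216037), in exon 4, at chr22:28796127-28796152 on the minus strand of GRCh38. It is shown in capitals with 12 bases on either side.
XBP1 intron: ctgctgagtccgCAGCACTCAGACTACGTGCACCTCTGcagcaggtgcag
Spliced and unspliced XBP1 mRNA share all other bases, so the reads per gene below hold both forms.

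The ER stress response element (ERSE) is the binding site that ATF6 uses together with the factor NF-Y. It was searched as CCAAT, then 9 bases of any kind, then CCACG, on both strands of RefSeq promoter windows (GRCh38.p14, 250 bases before to 50 after each start). The related ERSE-II was searched as ATTGG, then 1 base of any kind, then CCACG, and the unfolded protein response element (UPRE) of XBP1 and ATF6 as TGACGTGG. Of the 40 genes 37 had a window, and PDIA3, DERL1 and DERL3 had none. ERSE was present in windows of 25 of all 27305 gene symbols (0.0916%) and of 8 of the 37 genes (21.6%). ERSE-II was present in windows of 19 symbols (0.0696%) and of 3 of the 37 genes (8.11%). UPRE was present in windows of 253 symbols (0.927%) and also of 3 of the 37. The element of C/EBP and ATF factors was searched as TGATG, then 1 base of any kind, then AAT. It was in windows of 333 symbols (1.22%) and in none of these 37 genes' windows. Each ERSE match is given below in the direction of the motif, with the ends that the search required in capitals. All matches share these ends because of the search, and only the 9 bases between them could differ.
HSPA5, chr9:125241391-125241409: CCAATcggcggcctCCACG
XBP1, chr22:28800603-28800621: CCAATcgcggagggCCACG
ERO1B, chr1:236282183-236282201: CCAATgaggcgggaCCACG
CANX, chr5:179698778-179698796: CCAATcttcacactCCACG
HSP90B1, chr12:103930216-103930234: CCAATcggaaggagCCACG
HSP90B1, chr12:103930321-103930339: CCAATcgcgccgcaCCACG
PDIA6, chr2:10812853-10812871: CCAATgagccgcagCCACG
CRELD2, chr22:49918554-49918572: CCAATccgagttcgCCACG
CALR, chr19:12938384-12938402: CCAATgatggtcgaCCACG
The sites of CANX and HSP90B1 lay within annotated exons of those genes in GENCODE 29, and the others lay in no annotated exon. Those of PDIA6 and CRELD2 lay within the annotated span of the same gene, between exons.

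Longer stretches are shown for 4 genes that differ in their changes, with every exact match to ERSE or ERSE-II in capitals. Sites that differ from the search patterns by a base or more were not searched and stay in small letters. The HSPA5 stretch (chr9:125241344-125241593, minus strand, 250 bases) and the HYOU1 stretch (chr11:119057206-119057455, minus strand, 250 bases) end at the base before the RefSeq start, and neither overlaps an annotated exon. Those of HERPUD1 (chr16:56931892-56932047, plus strand) and CALR (chr19:12938359-12938577, plus strand) end at the base before the first annotated exon.
HSPA5: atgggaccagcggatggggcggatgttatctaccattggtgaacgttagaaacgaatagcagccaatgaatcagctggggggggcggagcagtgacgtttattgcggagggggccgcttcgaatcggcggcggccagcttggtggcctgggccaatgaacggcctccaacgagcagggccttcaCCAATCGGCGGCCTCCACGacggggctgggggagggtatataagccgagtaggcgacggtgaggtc
HYOU1: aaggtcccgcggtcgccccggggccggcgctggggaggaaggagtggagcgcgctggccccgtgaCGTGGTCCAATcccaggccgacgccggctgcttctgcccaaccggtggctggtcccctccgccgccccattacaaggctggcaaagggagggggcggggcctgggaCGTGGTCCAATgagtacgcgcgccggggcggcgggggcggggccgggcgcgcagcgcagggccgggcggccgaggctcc
HERPUD1: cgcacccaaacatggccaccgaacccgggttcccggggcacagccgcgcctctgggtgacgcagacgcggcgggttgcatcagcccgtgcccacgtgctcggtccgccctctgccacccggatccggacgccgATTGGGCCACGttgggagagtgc
CALR: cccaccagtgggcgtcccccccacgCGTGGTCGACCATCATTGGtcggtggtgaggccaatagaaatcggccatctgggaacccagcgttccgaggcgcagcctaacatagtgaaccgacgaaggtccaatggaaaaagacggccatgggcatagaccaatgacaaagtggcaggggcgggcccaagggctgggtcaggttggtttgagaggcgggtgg
In HYOU1 the UPRE match, at bases −188 to −181 from the start, overlaps the ERSE-II at −185 to −175. A match is a description of the letters and not a sign of binding.

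In total RNA, 22 of the 39 measured genes were higher in the knockout-labelled library and 0 were lower. A gene was measured where its 2 libraries of 1 kind together held 50 reads or more. Genes are called higher or lower when the scaled ratio passed 1.5-fold and its 95% counting interval excluded no change. By the same rule 16.2% of all 10875 genes measured were higher and 17.8% lower. The median change of the 39 genes was 0.73 on the log2 scale (1.66-fold), beside −0.01 over all genes, and 36 of the 39 had a change above 0. The gene not measured, DERL3, had 5 RNA reads in the knockout-labelled library and 1 in wild type. Fewer cells that express a gene and less of its RNA per cell cannot be told apart in such bulk libraries. By class, the higher genes were 6 of 7 sensors and factors and 9 of 11 degradation genes, but 6 of 13 chaperones and lectins and 1 of 8 disulfide enzymes.

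**Figure D1:**
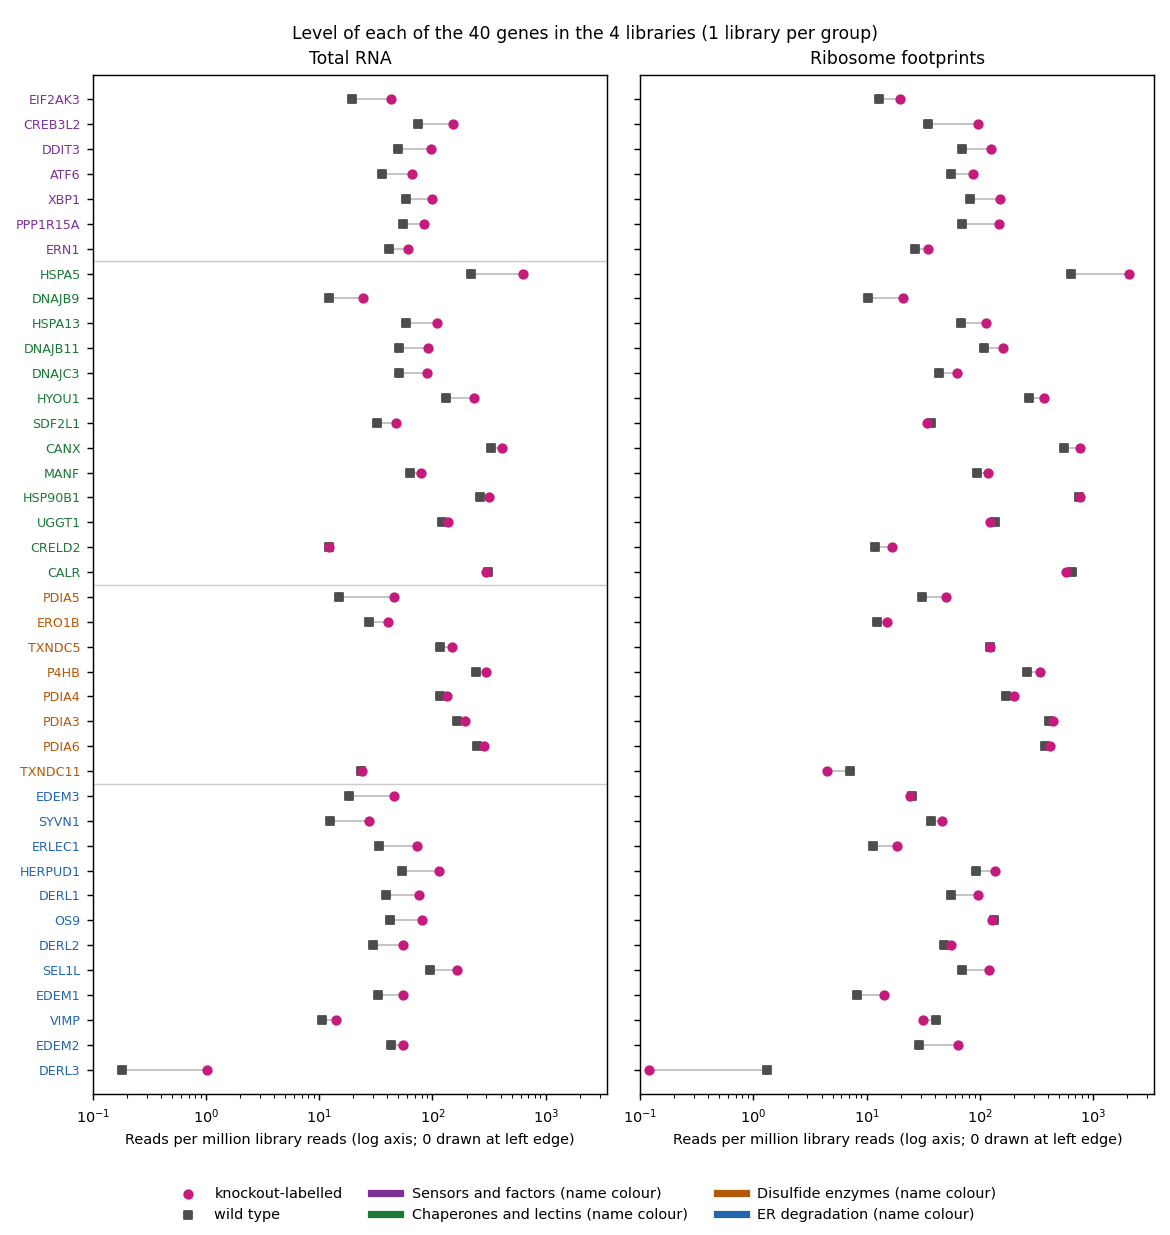
Level in CPM (log axis) of each of the 40 genes in knockout-labelled (circles) and wild-type (squares) libraries, total RNA left and footprints right. Names are coloured by class and ordered by RNA change within class. HSPA5 has the widest gap among the abundant genes in both panels, and DERL3, with 0 knockout-labelled footprints drawn at the left edge, is the least abundant in RNA.

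The RNAs of 2 of the 3 sensors were called higher. EIF2AK3, encoding PERK, had 214 reads in knockout-labelled RNA and 109 in wild type, or 2.18-fold higher (log2 1.12, 0.79 to 1.47). ATF6 had 326 and 197 reads in the same order, or 1.84-fold higher (0.88, 0.62 to 1.14). ERN1, encoding IRE1, had 299 reads in the knockout-labelled library and 229 in wild type. Its ratio of 1.45 missed the 1.5-fold limit, although its interval excluded no change (0.54, 0.28 to 0.79). Each of the 3 sensors thus had more reads in the knockout-labelled library, and 2 passed the fold limit. In footprints the order was the same at lower counts. EIF2AK3 had 74 knockout-labelled and 49 wild-type footprints (0.59, 0.05 to 1.15), a ratio just past 1.5 that was below the limit with a prior count of 2 (0.57). ATF6 had 327 knockout-labelled and 210 wild-type footprints (0.64, 0.38 to 0.90), and ERN1 had 132 and 102 (0.37, −0.01 to 0.76), which was not called.

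The other 4 genes of the class were higher in both measurements. XBP1, the factor made by IRE1 splicing, had 488 RNA reads in the knockout-labelled library and 327 in wild type (0.73, 0.52 to 0.94). Its footprints numbered 572 and 311 (0.88, 0.68 to 1.08). DDIT3, which encodes the pro-apoptotic factor CHOP of the PERK arm, had 481 RNA reads in the knockout-labelled library and 278 in wild type (0.94, 0.73 to 1.16). It had 472 knockout-labelled and 266 wild-type footprints (0.83, 0.61 to 1.05). PPP1R15A encodes GADD34, the phosphatase subunit that reverses phosphorylation of eIF2 alpha. It had 416 RNA reads in the knockout-labelled library and 307 in wild type, a ratio just past 1.5 (0.59, 0.37 to 0.81) that was below the limit when libraries were scaled by the median of ratios (0.58). Its footprints were 2.13-fold higher, with 564 knockout-labelled and 265 wild-type reads (1.09, 0.88 to 1.31). CREB3L2 encodes a membrane-bound factor that, like ATF6, is released by cleavage. It had the largest footprint change of the 7, with 362 knockout-labelled and 132 wild-type reads (1.45, 1.16 to 1.75), while its RNA was 2.04-fold higher (756 and 412 reads).

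Among the chaperones HSPA5 stood out. HSPA5 (ENSG00000044574, chr9:125234853-125241330 of GRCh38, minus strand) encodes BiP, the HSP70 of the ER lumen, which also binds the sensors. It had 3103 RNA reads in the knockout-labelled library against 1204 in wild type, and 7820 footprints in the knockout-labelled library against 2445 in wild type. The RNA was 2.86-fold higher (log2 1.52, 1.42 to 1.61) and the footprints 3.20-fold (1.68, 1.61 to 1.74), the largest footprint change among the 38 genes measured. HYOU1, the large HSP70 relative that exchanges the nucleotide of BiP, was 1.74-fold higher in RNA (1137 knockout-labelled and 727 wild-type reads). Of the J-domain partners of BiP, DNAJB9 had 121 RNA reads in the knockout-labelled library and 67 in wild type (1.00, 0.56 to 1.46). DNAJB11 had 454 RNA reads in the knockout-labelled library and 282 in wild type (1.79-fold), and DNAJC3 had 439 and 279 (1.75-fold). HSPA13, an HSP70-like protein of microsomes, had 540 and 327 RNA reads (0.87, 0.67 to 1.08). All 6 chaperones called in RNA were thus BiP, its relatives and its partners, but SDF2L1, also a partner of BiP, was not called (0.55, 0.26 to 0.84). In footprints DNAJB9 had 80 knockout-labelled and 39 wild-type reads (2.04-fold), and HSPA13 had 429 and 260 (1.65-fold), and both were called. HYOU1 had 1391 knockout-labelled and 1037 wild-type footprints, DNAJB11 had 603 and 415, and DNAJC3 had 238 and 166. Their ratios of 1.34 to 1.45 missed the limit.

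The other abundant chaperones differed little. HSP90B1, encoding the ER HSP90 GRP94, had 1563 RNA reads in the knockout-labelled library and 1461 in wild type (0.25, 0.14 to 0.35), and 2937 and 2837 footprints (0.05, −0.03 to 0.12). Calreticulin CALR had 1471 knockout-labelled and 1721 wild-type RNA reads (−0.08, −0.18 to 0.03), and 2202 and 2462 footprints (−0.16, −0.25 to −0.08). Its membrane-bound relative calnexin CANX had 2023 and 1816 RNA reads (0.31, 0.21 to 0.40), and 2935 and 2102 footprints (0.48, 0.40 to 0.56). None of these 3 passed 1.5-fold in either measurement. The glucosyltransferase UGGT1, which returns misfolded glycoproteins to the lectins, had 679 RNA reads in each library (0.15, −0.00 to 0.31). SDF2L1, a partner of BiP, had 237 knockout-labelled and 180 wild-type RNA reads (0.55, 0.26 to 0.84), and 130 and 139 footprints. It was called higher or lower in neither measurement, and the same held for MANF and CRELD2, secreted factors that ER stress induces. MANF had an RNA change of 0.31 (0.10 to 0.52), while CRELD2 had 60 knockout-labelled and 68 wild-type RNA reads (−0.03, −0.55 to 0.49).

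The disulfide enzymes were the class with the smallest median changes, 0.24 in RNA and 0.25 in footprints. PDIA5 (ENSG00000065485, chr3:123067070-123162104, plus strand), a protein disulfide isomerase, had 225 RNA reads in the knockout-labelled library and 83 in wild type, or 3.00-fold higher (1.58, 1.22 to 1.97), the largest RNA change of the 39 genes. Its footprints were 1.65-fold higher, with 192 knockout-labelled and 116 wild-type reads (0.72, 0.39 to 1.07). The main isomerases P4HB, PDIA3, PDIA4 and PDIA6 had RNA changes of 0.18 to 0.28 and footprint changes of 0.12 to 0.37. All 4 lay below the 1.5-fold limit in RNA and in footprints. TXNDC5 had an RNA change of 0.32 (0.16 to 0.47), and the oxidase ERO1B, which reoxidises the isomerases, one of 0.55 (0.24 to 0.87). TXNDC11 had 117 knockout-labelled and 130 wild-type RNA reads, and with 17 and 27 footprints it was not measured in RPF.

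Of the 11 degradation genes measured in RNA, 9 were higher. SYVN1, the ubiquitin ligase HRD1, had 135 RNA reads in the knockout-labelled library and 69 in wild type (1.11, 0.69 to 1.56). SEL1L, its scaffold partner, had 816 and 533 (0.77, 0.61 to 0.93). HERPUD1, which joins the same complex, had 558 and 300 (1.05, 0.84 to 1.25). These 3 subunits of 1 complex were thus 1.70-fold to 2.17-fold higher. The lectins OS9 and ERLEC1, which bring glycoproteins to that complex, were 1.90-fold and 2.13-fold higher, with 400 and 361 knockout-labelled reads against 233 and 188 in wild type. The rhomboid-like channel protein DERL1 had 372 RNA reads in the knockout-labelled library and 215 in wild type (1.92-fold), and its relative DERL2 had 269 and 166 (1.80-fold). Both were called higher. Of the mannosidase-like proteins that mark glycoproteins for disposal, EDEM3 had 224 RNA reads in the knockout-labelled library and 101 in wild type (1.30, 0.96 to 1.65), and EDEM1 had 269 and 184 (0.70, 0.42 to 0.98). EDEM2 had 268 and 240 (0.31, 0.05 to 0.57) and was not called, nor was the channel partner VIMP, also named SELENOS, with 69 and 59 reads (0.38, −0.15 to 0.90). In footprints 4 of the degradation genes called in RNA were called again. SEL1L had 460 knockout-labelled and 265 wild-type footprints (1.73-fold), DERL1 had 362 and 211 (1.71-fold), ERLEC1 had 70 and 43 (1.62-fold) and EDEM1 had 54 and 31 (1.73-fold). The counts of ERLEC1 and EDEM1 were low, and their intervals wide (0.13 to 1.29 and 0.14 to 1.49).

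**Figure D2:**
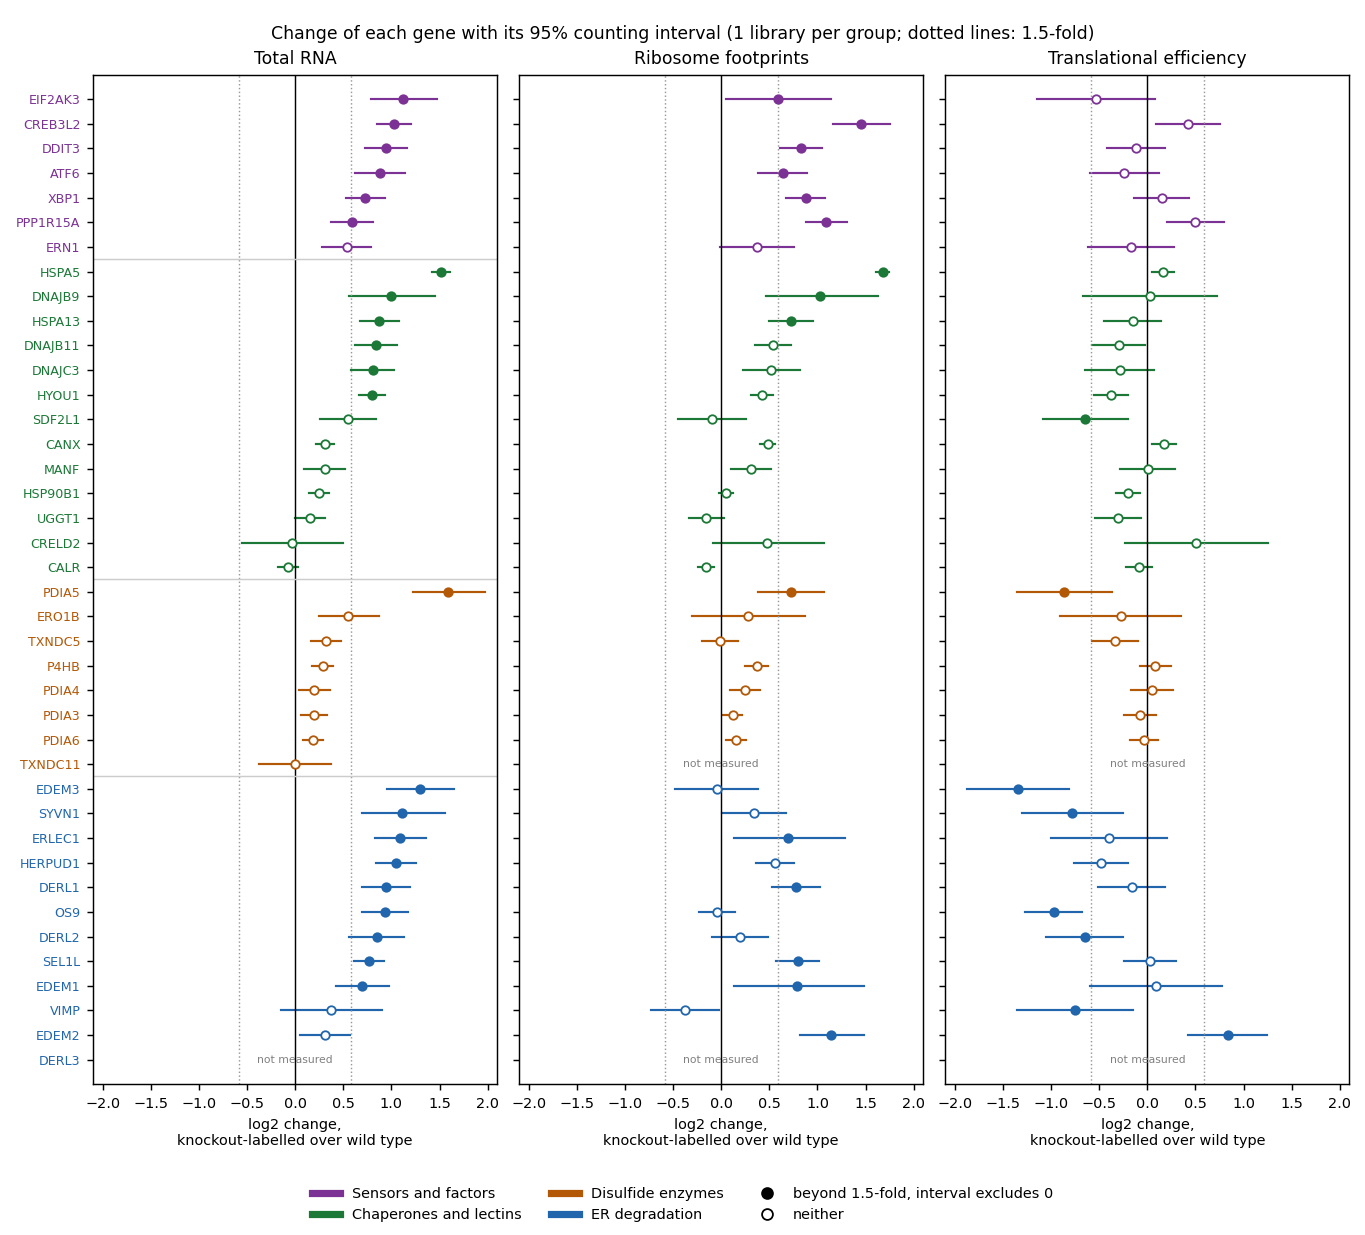
Log2 change (knockout-labelled over wild type) with 95% counting interval of each gene in RNA, footprints and translational efficiency; filled points passed 1.5-fold with an interval excluding 0, and genes are ordered by RNA change within class. Filled points lie to the right in RNA and footprints, and in translational efficiency 7 lie to the left and only EDEM2 to the right.

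In footprints 15 of 38 measured genes were higher and 0 lower, where 19.0% of all 9794 genes measured were higher and 20.1% lower. The median footprint change was 0.48, beside −0.00 over all genes, and 31 of the 38 had a change above 0. By class 6 of 7 sensors and factors were higher, 5 of 11 degradation genes, 3 of 13 chaperones and lectins and 1 of 7 disulfide enzymes. Of the 22 genes called in RNA, 14 were called in footprints too. Over all genes called higher in RNA and measured in both, 51.5% were called higher in footprints, against 63.6% of these 22. The 8 called in RNA alone were HYOU1, DNAJB11, DNAJC3, HERPUD1, SYVN1, DERL2, OS9 and EDEM3. HERPUD1 had 515 knockout-labelled and 349 wild-type footprints (0.56, 0.36 to 0.76), just under the limit. EDEM2 was the gene called in footprints alone, with 244 knockout-labelled and 110 wild-type reads (1.15, 0.82 to 1.49). Across the 38 genes measured in both kinds, Pearson's r between RNA and footprint change was 0.50 and Spearman's rho 0.49, beside 0.63 and 0.54 over all 9598 genes. These values describe genes of the same 4 libraries, which are not independent.

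**Figure D3:**
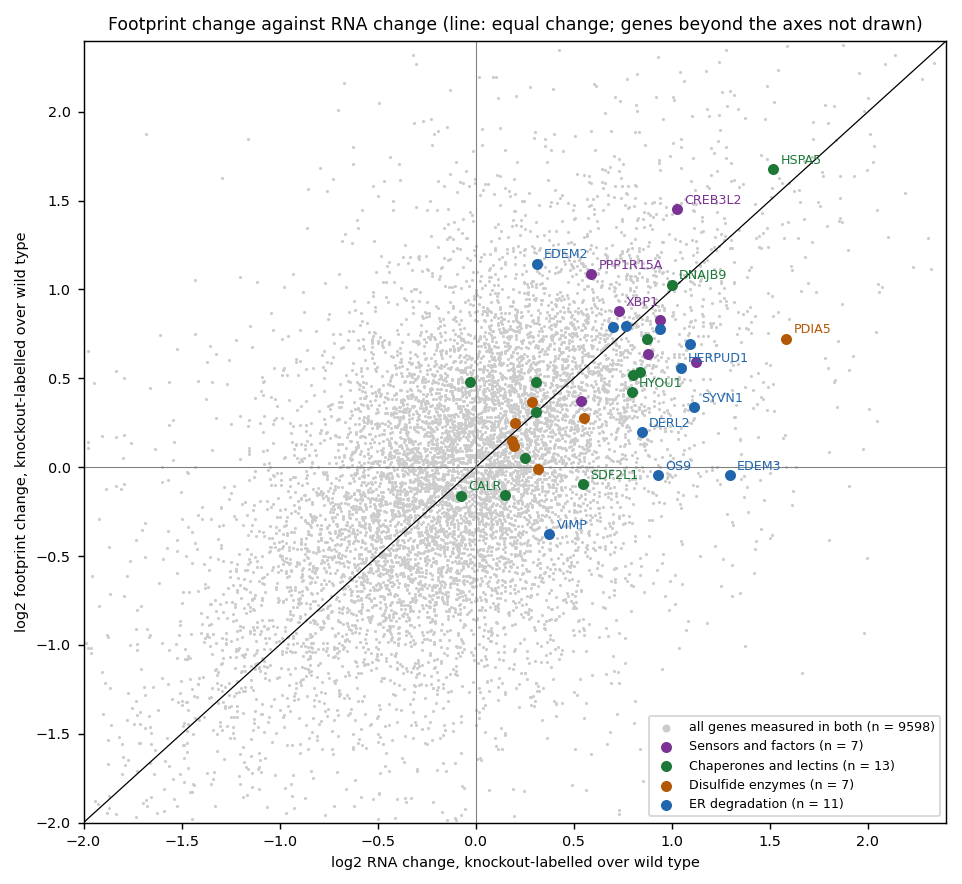
Log2 footprint change against log2 RNA change for all genes measured in both kinds (grey) and for the 38 genes by class (coloured), with the line of equal change. Most coloured points lie right of 0, and EDEM3, OS9, SYVN1 and PDIA5 lie furthest below the line while EDEM2 lies furthest above it.

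Translational efficiency (TE) is the footprint level of a gene relative to its RNA level, and its change is the footprint change minus the RNA change. It was lower for 7 of 38 genes and higher for 1, where 13.9% of all 9598 genes were lower and 15.7% higher. The median TE change was −0.16, beside 0.03 over all genes. In the degradation class 5 of 11 genes were lower, namely EDEM3, OS9, SYVN1, VIMP and DERL2. EDEM3 had the largest TE change of the 38, as its RNA was 2.46-fold higher while its footprints numbered 92 in the knockout-labelled library and 95 in wild type (TE change −1.34, −1.88 to −0.81). OS9 likewise had 486 and 501 footprints beside its higher RNA (−0.97, −1.27 to −0.68). SYVN1 had 177 and 140 (−0.78, −1.30 to −0.25), and DERL2 had 211 and 184 (−0.65, −1.05 to −0.25). These 4 had more RNA in the knockout-labelled library without a footprint change past the limit. VIMP, whose RNA was not called, had 120 knockout-labelled and 156 wild-type footprints (−0.75, −1.36 to −0.15). The other genes with lower TE were PDIA5 (−0.86, −1.35 to −0.37) and SDF2L1 (−0.64, −1.09 to −0.20). EDEM2 was higher (0.83, 0.42 to 1.25). DDIT3 and PPP1R15A, whose upstream reading frames are known to govern their translation in stress, were not called. DDIT3, with 3 ATGs in its annotated 5′ leader, had a TE change of −0.12 (−0.42 to 0.19), and PPP1R15A, with 2, had one of 0.50 (0.20 to 0.80). A TE change contains the RNA change with its sign reversed. Over all 1469 genes called higher in RNA and measured in both kinds, the median TE change was −0.29 and 27.8% were lower, and for the 22 genes here the median was −0.26 and 22.7% were lower.

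Part of the genes were also sorted by the sensor arm that is best known to control them. The rest, among them PDIA5, CREB3L2, OS9 and the sensors themselves, were assigned to no arm. The lists of arms follow textbook assignments, and many genes answer to more than 1 arm. Of 11 genes assigned chiefly to ATF6, 5 were higher in RNA and 3 in footprints, with median changes of 0.55 and 0.42. These are 45.5% in RNA and 27.3% in footprints, beside 16.2% and 19.0% of all genes. Of 9 measured genes assigned chiefly to XBP1, 7 were higher in RNA and 3 in footprints, with medians of 0.84 and 0.52 (77.8% and 33.3%). No gene of either list was lower in RNA or footprints. A list of 14 genes of the PERK and ATF4 arm, including DDIT3 and PPP1R15A, had 6 higher and 1 lower in RNA, and 7 higher and 2 lower among 13 measured in footprints, so that 42.9% and 53.8% were higher. Asparagine synthetase ASNS led that list with 5551 RNA reads in the knockout-labelled library and 1880 in wild type (1.71, 1.64 to 1.79). CEBPB, a transcription factor, had 815 knockout-labelled and 295 wild-type footprints (1.46, 1.27 to 1.66). TRIB3, a pseudokinase that CHOP and ATF4 induce, was 1.86-fold higher in RNA. ATF4 itself had an RNA change of 0.30 (0.21 to 0.38) and a footprint change of 0.45 (0.35 to 0.55), neither past the limit. The lower genes were the lipoprotein receptor VLDLR, with 53 and 172 RNA reads (−1.54, −2.02 to −1.10), and in footprints also ATF3, with 72 knockout-labelled and 142 wild-type reads. CHAC1, which degrades glutathione, had 109 knockout-labelled and 173 wild-type RNA reads (−0.51, not called) but more footprints in the knockout-labelled library (212 and 113), a TE change of 1.42 (0.94 to 1.89).

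Set beside the promoter elements shown above, the changes were as follows. Of the 8 genes with an ERSE, HSPA5 and XBP1 were higher in RNA, and the other 6 were not called, with a median over the 8 of 0.28. Of the 3 with an ERSE-II, HERPUD1 and HYOU1 were higher in RNA and SDF2L1 was not called. Of the 26 genes whose windows held neither element, 17 were higher in RNA, with a median of 0.82, and 12 of 25 were higher in footprints. By the same rule 16.2% of all genes measured were higher in RNA and 19.0% in footprints. CALR and HSP90B1, with 1 and 2 ERSE matches, had RNA changes of −0.08 and 0.25. The windows are short and other starts were not searched. Only exact matches were counted, so genes with neither element may hold sites with a mismatch. Whether the elements have a part in the changes was not tested.

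**Figure D4:**
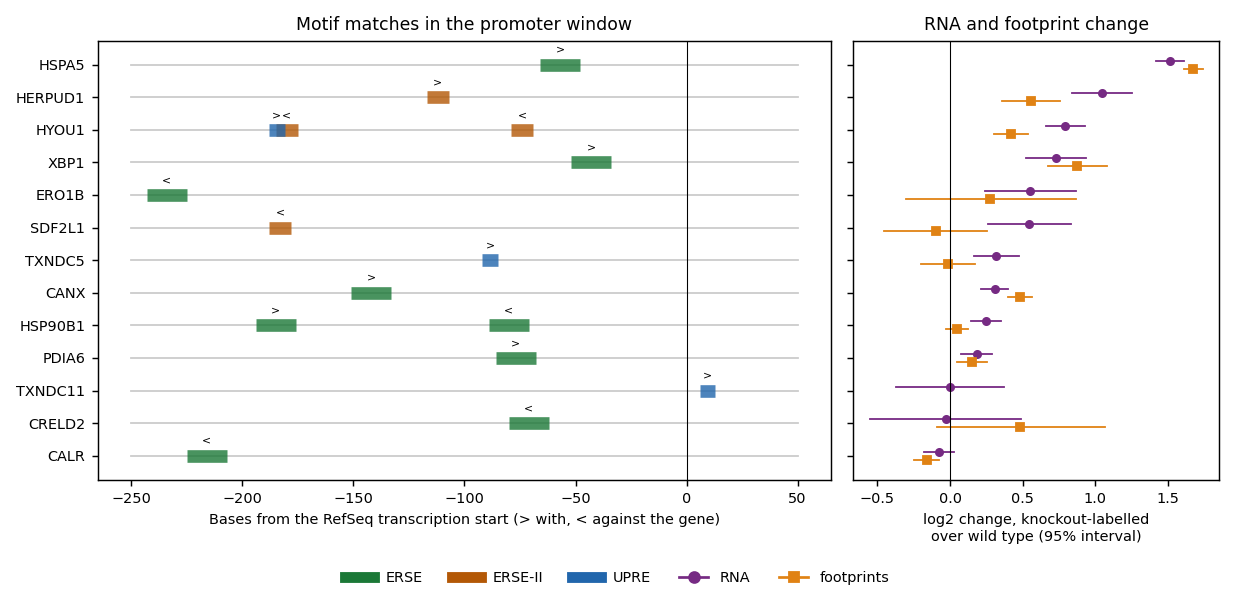
Left, ERSE, ERSE-II and UPRE matches by distance in bases from a RefSeq transcription start for the 13 genes with a match (1 of several windows for CANX), and right, the log2 RNA and footprint change of the same genes with 95% counting intervals. HSPA5 at the top and CALR at the bottom both carry an ERSE, at −66 to −48 and −225 to −207.

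Other genes of the same pathways, taken from lists of known ER proteins, were compared in the same way. Among folding genes outside the 40, 28 were measured, and 11 of these had higher and 1 had lower RNA (median 0.30), while 6 had higher and 2 lower footprints. The higher genes were 39.3% in RNA, beside 16.2% of all genes, and 21.4% in footprints, near the 19.0% of all genes. SIL1, a nucleotide exchange factor of BiP, had 339 RNA reads in the knockout-labelled library and 127 in wild type (1.56, 1.27 to 1.87), and 628 and 243 footprints. The prolyl isomerase FKBP10, the reductase DNAJC10 and the glucosidase MOGS were 1.91-fold, 1.82-fold and 1.77-fold higher in RNA. PRDX4, a peroxiredoxin of the ER, and UGGT2, the relative of UGGT1, were 2.16-fold and 2.26-fold higher in footprints. PRKCSH, the beta subunit of glucosidase II, was lower in RNA, with 406 and 706 reads (−0.65, −0.83 to −0.47), and had a TE change of 0.87. Of 20 further degradation genes 1 had higher and 2 had lower RNA (median −0.14), and of 19 measured in footprints 0 were higher and 4 lower (21.1%, near the 20.1% of all genes). FAM8A1, a partner of HRD1, was the higher one (0.96, 0.70 to 1.23), and the ubiquitin-conjugating enzymes UBE2J1 and UBE2J2 were the lower ones. The ATPase VCP, which pulls substrates from the membrane, had an RNA change of −0.35 (−0.46 to −0.24).

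Of 17 genes of signalling around the sensors measured in RNA, 2 were higher and 2 lower (11.8% each), beside 16.2% and 17.8% of all genes. Of 18 in footprints 1 was higher (5.56%) and 5 lower (27.8%), beside 19.0% and 20.1% of all genes. WFS1, an ER membrane protein that restrains ATF6, had 138 RNA reads in the knockout-labelled library and 684 in wild type (−2.15, −2.43 to −1.89). Its footprints were also lower, at 200 and 725 (−1.86, −2.09 to −1.63). TRAF2, the adaptor that links IRE1 to JNK signalling, was lower in RNA (−0.70, −1.06 to −0.36) and in footprints (−1.39, −1.74 to −1.06). BAK1, an apoptosis effector found also at the ER, was higher in both, at 2.43-fold and 3.35-fold. MBTPS1, the protease that first cuts ATF6, had 481 knockout-labelled and 468 wild-type RNA reads, but 74 and 125 footprints (−0.75, −1.19 to −0.33). The other eIF2 alpha kinases EIF2AK1 and EIF2AK2 had footprint changes of −0.84 and −0.80 with RNA changes of −0.12 and 0.05.

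**Figure D5:**
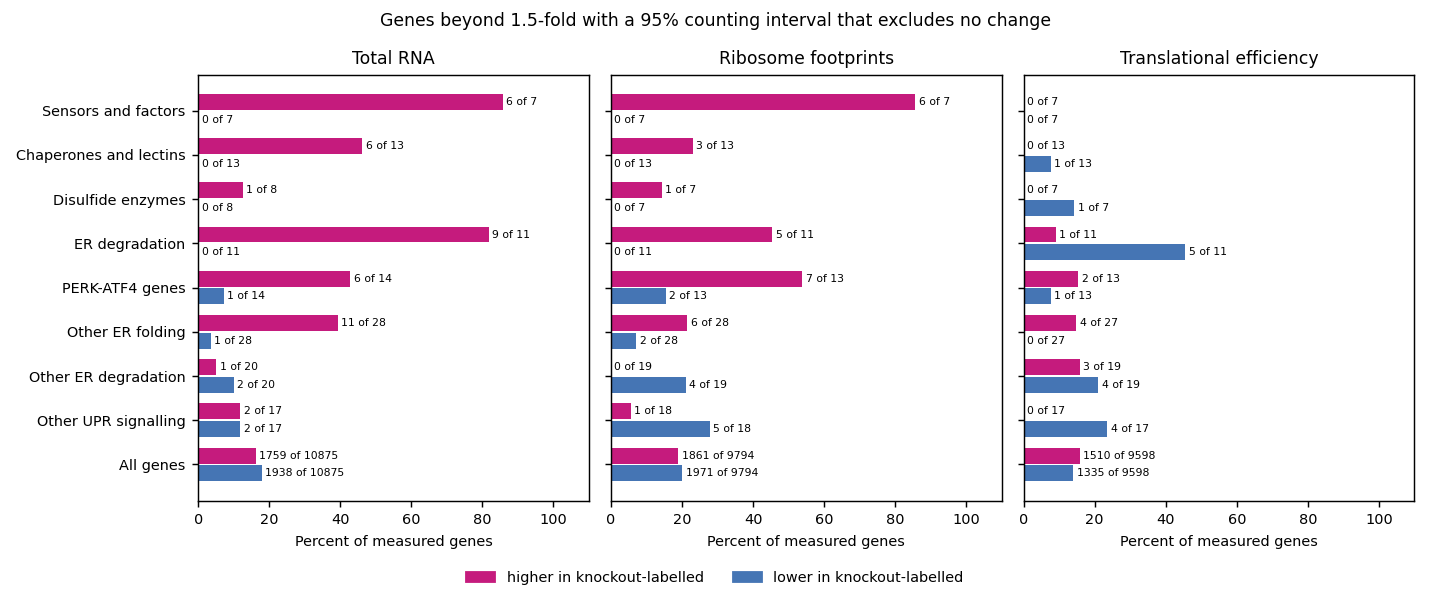
Percent of measured genes called higher or lower in the knockout-labelled libraries, by class of the 40 genes, for related lists (the PERK-ATF4 list holds DDIT3 and PPP1R15A) and for all genes, with the counts at each bar. In RNA the sensors (6 of 7) and degradation genes (9 of 11) have the longest bars, and other ER degradation (1 of 20) has the shortest of the bars for higher genes.

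Per length, HSPA5 took a different place in the order of levels in each library. On the scale of RPKM (CPM per kilobase of transcript), HSPA5 RNA stood at 161 in the knockout-labelled library, below CANX at 184. In wild-type RNA it stood at 55.5, below CALR at 163, CANX at 147, PDIA6, P4HB and HSP90B1. In footprints HSPA5 was the highest of the 40 in the knockout-labelled library, at 530, and ranked behind CALR, HSP90B1 and CANX in wild type, at 165. Footprints were divided here by the length of the whole transcript and not of its coding sequence. The coding sequence made up 50.2% of the HSPA5 transcript, 84.3% of that of HSP90B1 and 79.6% of that of CANX. The order of footprint levels between genes may therefore differ per coding base. DDIT3 ranked 7 of 40 in both RNA libraries, at 108 in knockout-labelled and 55.3 in wild-type cells. The sensors lay low in that order, with ERN1 at 7.70 and 5.24, ATF6 at 8.82 and 4.73, and EIF2AK3 at 9.34 and 4.23, knockout-labelled before wild type. DERL3 was the lowest in both RNA libraries, at 1.18 and 0.210. It had 0 footprints in the knockout-labelled library, which allows up to 0.794 CPM, and 5 in wild type.

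All 40 genes together took 0.501% of knockout-labelled RNA reads (Wilson 95% interval 0.495 to 0.508) and 0.335% of wild-type RNA reads (0.331 to 0.340). Of footprints they took 0.822% in the knockout-labelled library (0.813 to 0.831) and 0.569% in wild type (0.561 to 0.576). HSPA5 alone made up 25.2% of the 40 genes' footprints in the knockout-labelled library against 11.4% in wild type. Without it the other 39 took 0.615% of knockout-labelled footprints and 0.504% of wild-type footprints. The disulfide enzymes were 19.4% of the 40 genes' footprints in the knockout-labelled library and 24.5% in wild type.

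Footprints per RNA read, each scaled to its library total, were also set out within a genotype. The log2 ratio of HSPA5 was 1.72 in knockout-labelled and 1.58 in wild-type cells, at percentiles 96.3 and 96.4 of all genes measured. HSP90B1 had 1.29 and 1.51, and PDIA3 had 1.21 and 1.30. At the other end EDEM1 stood at percentiles 5.26 and 3.69, and ERLEC1 had −1.97 and −1.56. OS9 and SYVN1 stood at 0.67 and 0.77 in knockout-labelled cells against 1.66 and 1.57 in wild type, and EDEM3 at −0.89 against 0.47. The coding sequence made up 50.2% of the HSPA5 transcript and 32.1% of the EDEM1 transcript, and whether reads in untranslated regions were counted is not given, which limits any comparison of these ratios between genes. The 40 transcripts had a median length of 2925 bases and a GC content of 48.0%, beside 2958 bases and 49.4% for all genes measured in both kinds.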

How the data were processed

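Reads per gene were analysed for 4 libraries, 1 for each combination of genotype (knockout-labelled or wild type) and kind (total RNA or RPF), grouped by title. The authors deposited raw read counts, whole numbers for 1 Ensembl transcript per gene symbol. GRCh38 is the build in the submitters' processing notes, which also list HISAT2 2.1.0, Bowtie 1.1.2 and cutadapt 1.10. Per the labels' protocols, linkers carried random identifiers and rRNA was removed. Which region was counted, how multiply mapping reads were treated and whether identifiers were collapsed is not given in the sources used here.

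Libraries of a kind were scaled by the trimmed mean of M values in edgeR 4.0.16 (R 4.3.3). Changes are log2 ratios, knockout-labelled over wild type, with a prior count of 0.5. RNA and RPF intervals are exact conditional (Clopper-Pearson) 95% limits, and TE limits come from the sum of reciprocal counts. They treat each read as an independent count and cover no difference between cultures or libraries. PCR reads are not molecules, so the limits may be too narrow even for counting error. A gene was measured with 50 or more reads summed over the 2 libraries compared (for TE, in RNA and in RPF). Calls needed 1.5-fold and an interval excluding no change. There were 0 residual degrees of freedom, so no test was made and no p-value is given. The script was tested on simulated data. Positions and lengths are from GENCODE 29 (19176 transcripts found) and promoters from RefSeq (GRCh38.p14). Tables and figures were made in Python 3.11.15 with pandas 2.3.3, SciPy 1.17.1, matplotlib 3.10.9 and NumPy 2.4.6. DESeq2 1.42.0 gave alternative size factors.

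The 40 genes, the classes and the lists were chosen with earlier results of these data known, so their direction is not independent support. All 40 genes are accounted for. From the related lists, those named are among the 4 or fewer called genes per list and comparison, ranked by the interval bound nearest to no change. ATF4 and VCP were chosen after their values were seen.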

Additional observations from a re-analysis of the deposited data

How the results depend on the processing

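Counts and medians were recomputed under 8 alternatives, namely 2 other scalings, scaling without the MTRNR2L genes and PLCG2, minimums of 20, 200 or no reads, a prior count of 2, and a 2-fold limit. At 2-fold, 8 genes were higher in RNA, 5 in footprints and 0 in TE, and 1 was lower in TE, while 0 remained the count of lower genes in RNA and footprints. Under the other 7 alternatives the higher genes numbered 21 to 22 in RNA and 11 to 15 in footprints, 1 was higher and 5 to 8 lower in TE, and 0 were lower in RNA or footprints. The medians lay between 0.72 and 0.75 for RNA, 0.42 and 0.48 for footprints and −0.18 and −0.15 for TE. Without a minimum of reads the median over all genes was 0.15 in RNA and −0.15 in TE. The calls of PPP1R15A in RNA (0.58 by median-of-ratios scaling) and EIF2AK3 in footprints (0.57 at a prior count of 2) were the only single-gene calls lost under another scaling or prior count, and no called gene reversed its direction. No paired analysis was possible because each group has 1 library, and leaving out a library leaves no comparison. Depth left DERL3 unmeasured, and TXNDC11 in footprints. DNAJB9, CRELD2, EDEM1, EDEM3, ERLEC1, ERO1B and EIF2AK3 had under 100 footprints in each library.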
